A study of Margaritifera margaritifera with 32 samples.

Results

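In kidneys of the freshwater pearl mussel (Margaritifera margaritifera, a long-lived river bivalve), 4 assembled contigs were followed whose difference between a downstream and an upstream site had opposite signs in 2010 and 2009. They carry the names NHRF1, TRMT44, ppp1r15b and ADHX, and were taken from the count table as every row under one of those names. That gave 8 contigs of 51392. NHRF1, TRMT44.2.2, ADHX.4.4 and ppp1r15b were chosen because their site difference changed between the years, so their values on site and year are given as a description. TRMT44.1.2, ADHX.1.4, ADHX.2.4 and ADHX.3.4 are the other contigs of the same names and were not chosen on those values. All 8 passed the filter on low counts. Each numbered contig is a separate row, and its name is a match by likeness whose identity was not tested here. How the authors treated reads that match several contigs is not given in the sources used here, so reads may be divided between alike contigs of a name.

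The 4 groups held 8 animals each, taken downstream of a dump in 2010 (March), upstream of it in 2010, downstream in 2009 (April) and upstream in 2009. No treatment or genotype is labelled, and each library came from 1 animal. The downstream 2010 group had 3 young, 3 middle-aged and 2 old animals, and the upstream 2010 group had 4, 3 and 1. The downstream 2009 group had no young, 1 middle-aged and 7 old animals, and the upstream 2009 group had 3, 4 and 1.

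Each of the 4 names belongs to a protein that is well described elsewhere. NHRF1 stands for NHERF1, a scaffold with PDZ domains. In the mammalian kidney tubule it holds phosphate and proton exchange transporters at the apical membrane and ties them to actin through ezrin, radixin and moesin. TRMT44 is the relative of a yeast enzyme that puts a methyl group on the ribose of a uridine in serine tRNA. ADHX is class III alcohol dehydrogenase, which in animals oxidises formaldehyde bound to glutathione and also reduces S-nitrosoglutathione. The ppp1r15b product, called CReP in mammals, leads protein phosphatase 1 to the initiation factor eIF2 and removes the phosphate that stress kinases put there. None of these roles was measured in these animals, and no contig sequence or length was used here. Levels are given in CPM, a contig's counts relative to the library total after TMM scaling, and can be compared between animals but not between contigs.

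Libraries held 55.7 to 190 M counts, and the 8 contigs had between 41 and 4084 counts in a library. Downstream 2009 replicates 7 and 8 had the lowest scaling factors, 0.503 and 0.524, against 0.601 for the next, upstream 2009 replicate 4. The 4 sequencing lanes held 2 animals of each group. Index sequences differed between all groups, and sample numbers ran in a separate block for each group. Neither can be told apart from site or year. The summed level of 15 contigs matched by muscle names (tropomyosin, myosin light chains and tpmt, which is not a muscle gene) had a median of 665 CPM downstream and 622 CPM upstream in 2010, and of 1360 CPM downstream and 960 CPM upstream in 2009. In single libraries it ran from 257 to 1330 CPM downstream and 395 to 5130 CPM upstream in 2010, and from 299 to 6610 CPM downstream and 398 to 2520 CPM upstream in 2009. The sum of 16 haemocyte and immune contigs had a median of 138 CPM (range 91.2 to 229) downstream and 139 CPM (102 to 188) upstream in 2010, and of 269 CPM (178 to 1110) downstream and 209 CPM (109 to 468) upstream in 2009. The 2 cilia contigs (CFA20 and DYH7) summed to medians of 14.7 CPM downstream and 23.7 CPM upstream in 2010, and 26.8 CPM downstream and 29.6 CPM upstream in 2009, within 10.5 to 89.9 CPM. No yolk or egg name was matched, and no list of kidney markers was used, so the tissue label was not checked. In whole tissue, fewer cells of a type and less RNA per cell cannot be told apart.

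The choice rested on the site by year interaction, the site difference in 2010 minus that in 2009, in edgeR's quasi-likelihood test over all contigs. Calls were made where the Benjamini-Hochberg adjusted p fell below 0.05. Of 51264 contigs tested, 226 were called (0.441%), 225 with a higher and 1 with a lower value. Of the 1423 named contigs tested, 6 were called (0.422%), and 4 of these are the chosen contigs. The single contig of the lower direction (0.00195%) is ppp1r15b. In all 226 the sign of the fitted site difference turned between the years. Over all tested contigs, 25.6% were higher downstream in 2010 and lower there in 2009, 18.3% the opposite, and 56.1% kept 1 sign. For the 4 chosen contigs, the site difference within a year was not called in this edgeR model in either year. Its adjusted p ran from 0.109 to 0.381 in 2010 and from 0.534 to 0.536 in 2009 (edgeR). In these tests 0.164% and 0% of all contigs were called. Next to the threshold, the named contigs just inside were DIAP2.1.3 (adjusted p = 0.044, edgeR) and ppp1r15b (0.0454), and those just outside were TNFRSF6B (0.0703) and cdk19 (0.0766). A term for age class moved the adjusted p of all 4 chosen contigs past the threshold, to 0.131 to 0.19 in edgeR, and a term for lane to 0.0507 to 0.0702.

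NHRF1, the apical scaffold, had its lowest, median and highest levels at 6.06, 10.2 and 16.3 CPM downstream and 4.8, 6.35 and 8.97 CPM upstream in 2010. In 2009 they were 1.9, 5.21 and 10.1 CPM downstream and 4.22, 13.2 and 25.4 CPM upstream. In 2010, 7 of 8 downstream animals lay above every upstream animal. In 2009 all 8 downstream animals lay below the upstream median. Here and below, the share of all contigs with 7 of 8 animals so placed, or all 8 beyond a median, was not counted. For the chosen contigs these placings are not independent of the choice. The upstream 2009 group was also the most spread, with 25.4, 23.7 and 20.7 CPM in replicates 3, 6 and 4 and 4.22 CPM in replicate 5. Group means were 10.7 ± 2.94 CPM downstream and 6.67 ± 1.47 CPM upstream in 2010, and 5.53 ± 3.06 CPM downstream and 14.7 ± 7.77 CPM upstream in 2009 (SD, n = 8 each).

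The fitted site difference of NHRF1 was 0.68 ± 0.32 in 2010 and -1.41 ± 0.33 in 2009 on the log2 scale (estimate ± SE). Between the years, NHRF1 differed by 0.95 ± 0.32 downstream and by -1.14 ± 0.32 upstream (log2, 2010 minus 2009), comparisons in which 27.7% and 3.73% of all contigs were called. The interaction was 2.09 ± 0.46 over all animals and 1.78 with age class in the model. Within lanes 1 to 4 it was 2.20, 1.17, 1.67 and 3.32. Here and below, values within lanes are differences of mean log2 CPM from 2 animals per group, not fits. They come from the animals on which the contigs were chosen, so the lanes are not a separate test. Across animals, after subtracting the group means, NHRF1 had r = -0.43 with the library scaling factor, a larger value than for any other of the 8 contigs. The part of scaling in its values was not tested beyond the other scalings tried.

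TRMT44.2.2, of the tRNA methyltransferase name, had its lowest, median and highest levels at 4.65, 16.6 and 23.4 CPM downstream and 3.49, 8.23 and 12.3 CPM upstream in 2010. In 2009 they were 2.12, 4.8 and 6.24 CPM downstream and 3.64, 7.41 and 13.4 CPM upstream. In 2010, 7 of 8 downstream animals were above all upstream animals, and these 7 were also above all downstream animals of 2009. The exception was replicate 5, an old animal with 4.65 CPM. The other old animal of that group, replicate 2, had 16.1 CPM. Mean levels were 16.7 ± 6.16 CPM downstream and 8.21 ± 2.78 CPM upstream in 2010, and 4.55 ± 1.26 CPM downstream and 7.53 ± 3.2 CPM upstream in 2009 (SD, n = 8 each).

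The site difference of TRMT44.2.2 was 1.03 ± 0.28 in 2010 and -0.72 ± 0.28 in 2009 (log2 ± SE). The year difference was 1.88 ± 0.29 downstream and 0.13 ± 0.28 upstream. The interaction was 1.75 ± 0.40, and 1.42 with age class in the model. Within lanes it was 0.02 in lane 1 and 3.00, 1.71 and 1.86 in lanes 2 to 4. The site difference of 2009 within lanes was 0.19 in lane 1 and -1.8, -0.25 and -0.81 in lanes 2 to 4. Over all lanes, the interaction was 1.89 without downstream 2010 replicate 5, an animal of lane 1. Why lane 1 differed was not tested.

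**Figure D1:**
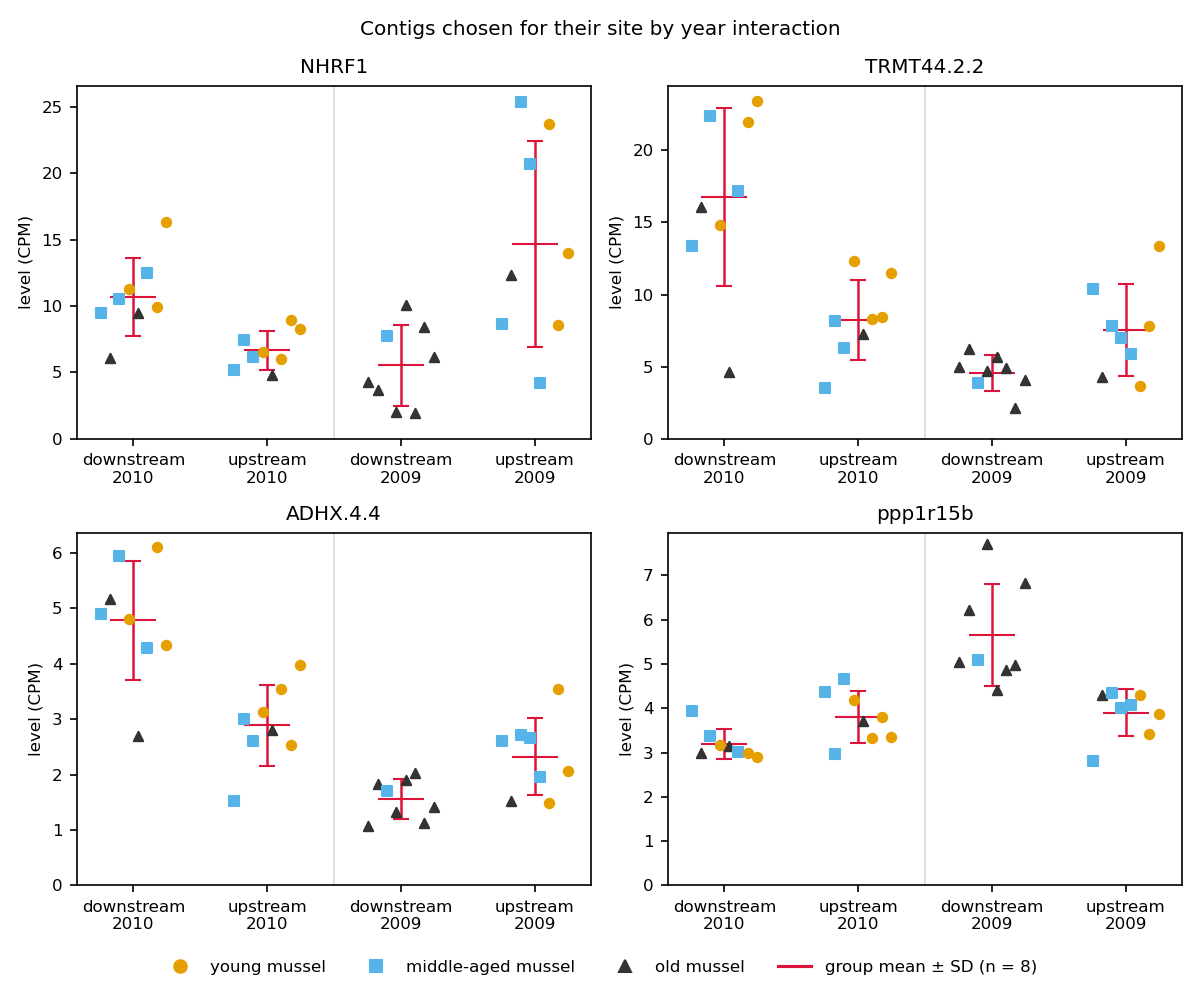
Level in CPM of each animal for the 4 contigs chosen on the site by year interaction, by group. Point shapes mark the age class, and the bar and whiskers give the mean and SD of 8 animals. NHRF1, TRMT44.2.2 and ADHX.4.4 had higher means downstream than upstream in 2010 and lower means downstream in 2009, and ppp1r15b had the opposite.

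The other contig of the name, TRMT44.1.2, was not chosen, and its range was narrower. Its lowest, median and highest levels were 1.39, 1.64 and 2.00 CPM downstream and 0.951, 1.16 and 1.86 CPM upstream in 2010. In 2009 they were 0.886, 1.27 and 1.55 CPM downstream and 0.726, 1.2 and 2.4 CPM upstream. All 8 downstream animals of 2010 lay above the upstream median of that year, while the groups of 2009 overlapped in full. Its interaction was 0.48 ± 0.28 (log2 ± SE, 95% interval -0.10 to 1.06, adjusted p = 0.604 in edgeR) and did not pass the test. Its site difference in 2010 was 0.44 ± 0.20 (adjusted p = 0.319 in edgeR, where 0.164% of all contigs were called and 0.162% were called higher downstream), and limma-voom with sample weights, which called 29% of all contigs there, called it (adjusted p = 0.000369). Without upstream 2009 replicate 4, which held the 2.4 CPM, the interaction was 0.285.

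The counts of TRMT44.2.2 over those of TRMT44.1.2 in the same library do not depend on the scaling. The ratio had a median of 10 (range 2.86 to 13.6) downstream and 6.74 (3.67 to 8.33) upstream in 2010, and of 3.89 (1.4 to 6.37) downstream and 5.17 (2.92 to 10.9) upstream in 2009. The lowest ratios of the 32 animals were in downstream groups, 1.4 in replicate 7 of 2009 and 2.81 in replicate 8 of 2009, followed by 2.86 in replicate 5 of 2010. The TRMT44.2.2 share of the counts of the name ranged from 58.3% to 93.2%. TRMT44.2.2 was chosen on site and year, so the ratio is not independent of that choice. Whether the interaction of the 2 contigs differed was not tested.

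ADHX.4.4, one of 4 contigs of the formaldehyde dehydrogenase name, had its lowest, median and highest levels at 2.69, 4.85 and 6.11 CPM downstream and 1.52, 2.91 and 3.97 CPM upstream in 2010. In 2009 they were 1.08, 1.56 and 2.02 CPM downstream and 1.49, 2.34 and 3.55 CPM upstream. In 2010, 7 of 8 downstream animals lay above every upstream animal, and downstream 2010 replicate 5 was again the exception. In 2009 all 8 downstream animals lay below the upstream median. All 8 downstream animals of 2010 lay above all 8 of 2009, a separation found in that direction in 3.34% of all contigs.

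Mean levels of ADHX.4.4 were 4.78 ± 1.08 CPM downstream and 2.89 ± 0.733 CPM upstream in 2010, and 1.55 ± 0.363 CPM downstream and 2.32 ± 0.692 CPM upstream in 2009 (SD, n = 8 each). The site difference was 0.73 ± 0.20 in 2010 and -0.58 ± 0.20 in 2009, and the year difference 1.62 ± 0.20 downstream and 0.32 ± 0.20 upstream (log2 ± SE). The interaction was 1.30 ± 0.28, and 1.10 with age class in the model. Within lanes it was -0.09 in lane 1 and 1.78, 1.73 and 1.73 in lanes 2 to 4. As for TRMT44.2.2, lane 1 was the lane without a change of sign between the years, and it held replicates 5 and 6 of each group. The site difference of ADHX.4.4 in lane 1 was 0.11 in 2010 and 0.2 in 2009, and the cause was not tested.

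**Figure D2:**
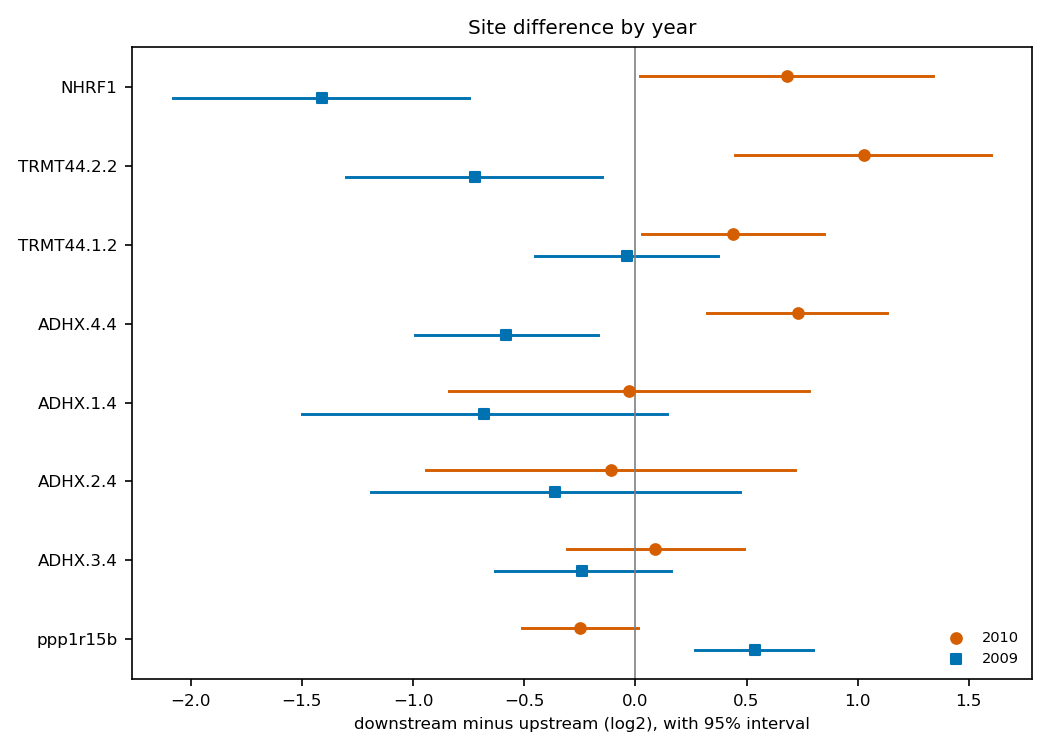
Fitted site difference, downstream minus upstream on the log2 scale, for the 8 contigs in 2010 (circles) and 2009 (squares), with 95% intervals from edgeR. For NHRF1, TRMT44.2.2, ADHX.4.4 and ppp1r15b the estimates lie on opposite sides of 0 in the 2 years, which is what they were chosen for. The estimates of TRMT44.1.2 (0.44 in 2010, -0.04 in 2009) and ADHX.3.4 (0.09 and -0.24) also do. For each contig that was not chosen, the intervals of the 2 years overlap.

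The other ADHX contigs showed no such turn past the test. ADHX.3.4 averaged 5.45 ± 1.5 CPM downstream and 5.13 ± 1.22 CPM upstream in 2010, and 5.12 ± 1.34 CPM downstream and 6.02 ± 1.22 CPM upstream in 2009 (SD, n = 8 each). ADHX.1.4 averaged 2.27 ± 1.01 CPM downstream and 2.31 ± 1.19 CPM upstream in 2010, and 1.99 ± 1.14 CPM downstream and 3.21 ± 1.72 CPM upstream in 2009. ADHX.2.4 averaged 3.19 ± 1.5 CPM downstream and 3.43 ± 1.78 CPM upstream in 2010, and 3.99 ± 2.01 CPM downstream and 5.12 ± 2.96 CPM upstream in 2009. In all 3 the groups overlapped widely. The largest levels of ADHX.1.4 (5.53 CPM), ADHX.2.4 (9.4 CPM) and ADHX.3.4 (8.42 CPM) all fell in upstream 2009 replicate 4. Downstream 2010 replicate 5 had the lowest level of each, at 0.459 CPM for ADHX.1.4, 0.428 CPM for ADHX.2.4 and 2.41 CPM for ADHX.3.4.

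The interaction was 0.65 ± 0.56 for ADHX.1.4 (95% interval -0.50 to 1.81, adjusted p = 0.818 in edgeR). It was 0.25 ± 0.57 for ADHX.2.4 (-0.92 to 1.42, adjusted p = 0.974) and 0.32 ± 0.28 for ADHX.3.4 (-0.24 to 0.89, adjusted p = 0.81). Whether these values differ from that of ADHX.4.4 was not tested. With age class in the model the estimate turned below 0 for ADHX.1.4 (-0.026) and ADHX.2.4 (-0.51). Within lanes 1 to 4 the interaction was 0.48, 1.32, -0.26 and 1.04 for ADHX.1.4, 0.14, 0.45, -0.91 and 0.77 for ADHX.2.4, and 0.20, 0.08, 0.42 and 0.58 for ADHX.3.4.

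**Figure D3:**
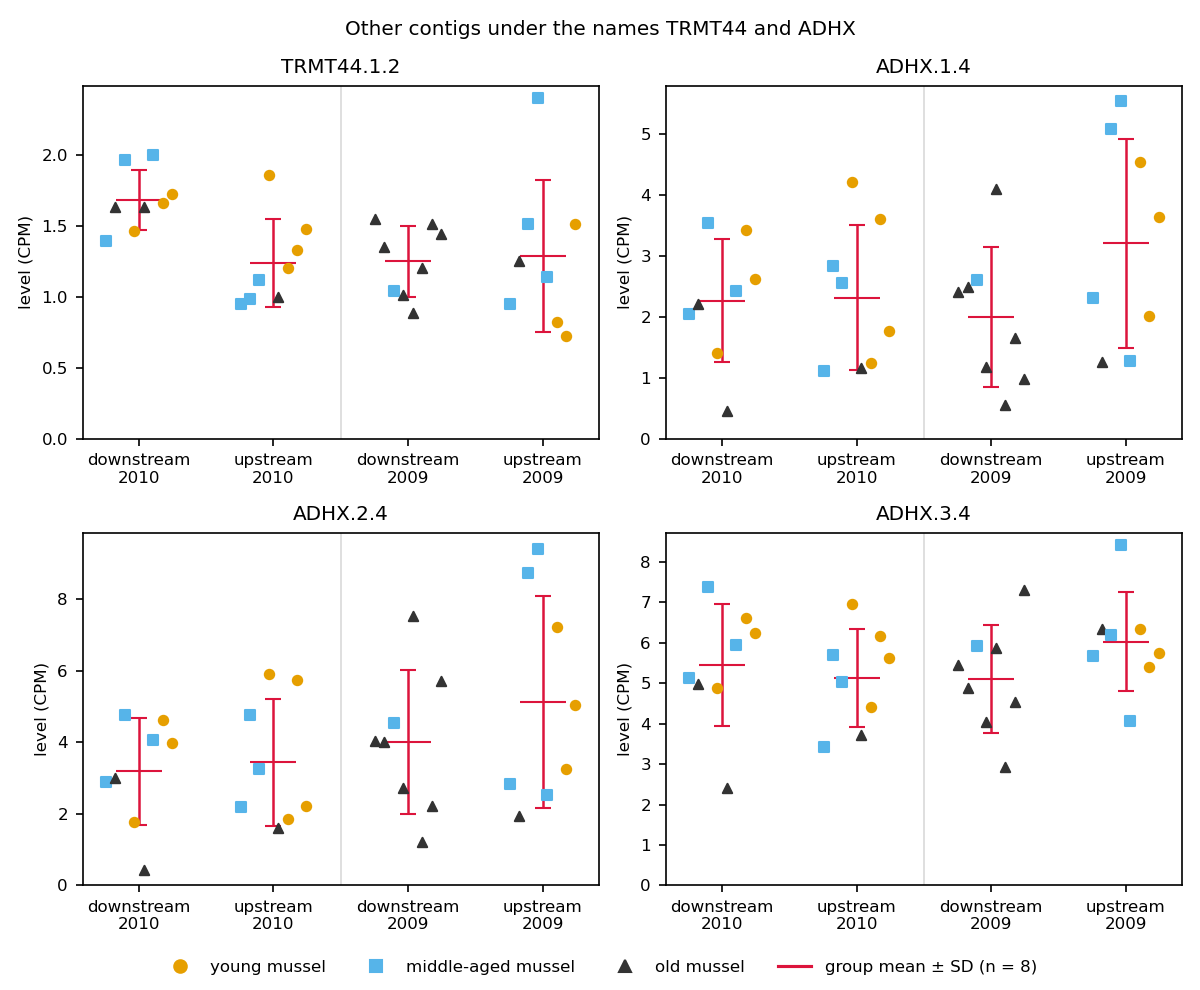
Level in CPM of each animal for the 4 contigs of the same names that were not chosen, by group, with the age class as point shape and the mean and SD of 8 animals. The groups overlap in every panel, and downstream 2010 replicate 5, an old animal, is the lowest point of the 3 ADHX panels.

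Within libraries the 4 ADHX contigs stood in different proportions from group to group. The counts of ADHX.4.4 over those of ADHX.3.4 had a median of 0.939 (range 0.695 to 1.12) downstream and 0.522 (0.411 to 0.808) upstream in 2010, and of 0.307 (0.194 to 0.692) downstream and 0.399 (0.236 to 0.655) upstream in 2009. All 8 downstream animals of 2010 lay above all 16 animals of 2009 in this ratio, 0.695 at the lowest against 0.692 at the highest. ADHX.4.4 was chosen on site and year, so its ratios and shares are not independent of that choice. How often other pairs of contigs separate in this way was not tested. The share of ADHX.4.4 in the counts of the name had a median of 31.1% downstream and 18.9% upstream in 2010, and of 11.7% downstream and 13.2% upstream in 2009. The ratio of ADHX.2.4 to ADHX.1.4 varied less between groups, with medians of 1.36 downstream and 1.45 upstream in 2010, and 1.78 downstream and 1.60 upstream in 2009. A single value stood far out in it, the 5.8 of downstream 2009 replicate 8. Summed over the name, ADHX had an interaction of 0.59 (log2, adjusted p = 0.603 in edgeR), and was not called.

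**Figure D4:**
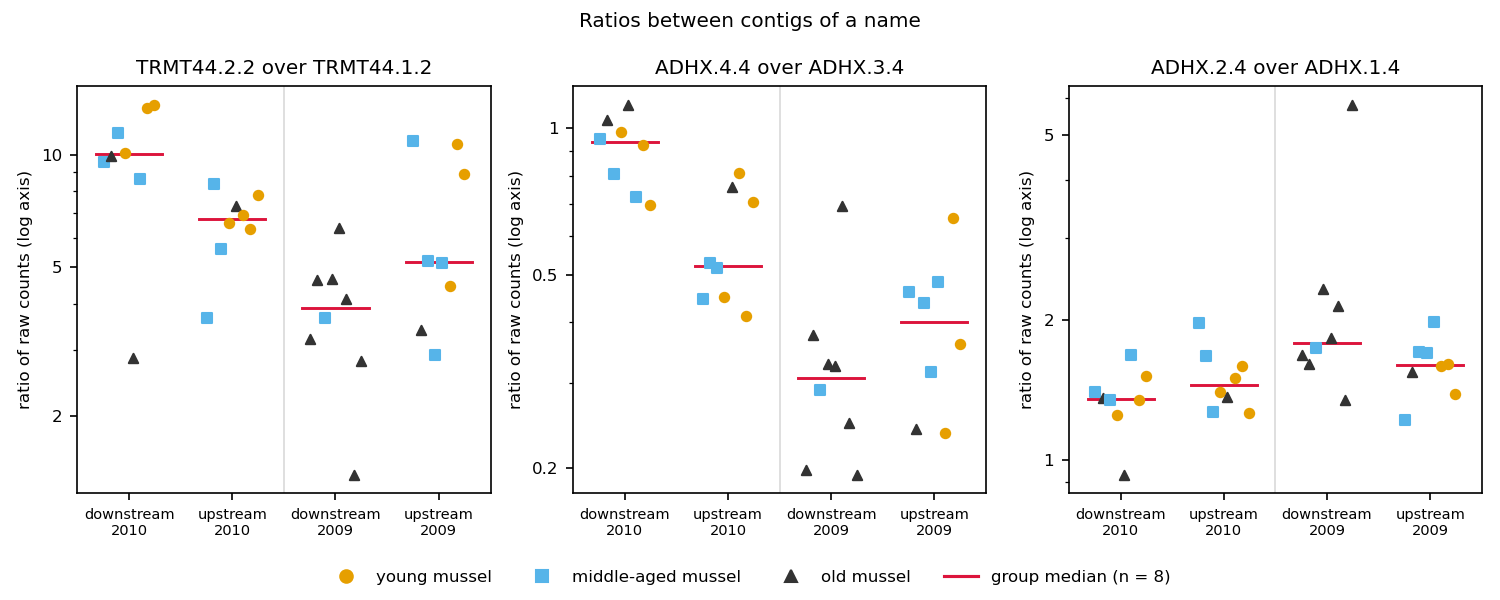
Ratio of raw counts between contigs of a name in each animal, by group on a log axis, with the group median as a bar. TRMT44.2.2 and ADHX.4.4 were chosen on site and year. The ratio of TRMT44.2.2 to TRMT44.1.2 and that of ADHX.4.4 to ADHX.3.4 have their highest medians downstream in 2010 (10 and 0.939) and their lowest downstream in 2009 (3.89 and 0.307), and the medians of ADHX.2.4 over ADHX.1.4 lie between 1.36 and 1.78.

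The eIF2 phosphatase cofactor ppp1r15b had its lowest, median and highest levels at 2.89, 3.08 and 3.93 CPM downstream and 2.96, 3.76 and 4.67 CPM upstream in 2010. In 2009 they were 4.41, 5.07 and 7.72 CPM downstream and 2.82, 4.05 and 4.35 CPM upstream. All 8 downstream animals of 2009 lay above all 8 upstream animals of that year, 4.41 CPM at the lowest against 4.35 CPM at the highest. Such a separation was found in 1 of the 51264 contigs in that direction (0.00195%) and in 5 in the opposite direction (0.00975%). The site difference of 2009 is part of the interaction on which ppp1r15b was chosen, so the separation is not independent of the choice. How many contigs chance alone would separate was not tested. All 8 downstream animals of 2010 also lay below all 8 of 2009, as was found in 1.7% of contigs. In 2010 the sites overlapped, with 7 of 8 downstream animals below the upstream median.

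Mean levels of ppp1r15b were 3.19 ± 0.335 CPM downstream and 3.8 ± 0.579 CPM upstream in 2010, and 5.65 ± 1.15 CPM downstream and 3.89 ± 0.531 CPM upstream in 2009 (SD, n = 8 each). The site difference was -0.25 ± 0.13 in 2010 and 0.54 ± 0.13 in 2009, and the year difference -0.82 ± 0.13 downstream and -0.04 ± 0.13 upstream (log2 ± SE). The 2 upstream groups and their spreads were thus close, and the downstream groups lay on either side of them. The interaction was -0.79 ± 0.18, the smallest in size of the chosen contigs and the one with the smallest SE, and -0.76 with age class in the model. Within lanes 1 to 4 it was -0.33, -0.96, -0.75 and -1.01. The animals of the downstream 2009 group were old but for 1, and that middle-aged animal had 5.09 CPM, inside the range of the 7 old ones (4.41 to 7.72). The old animals of the other groups had 3.00 and 3.14 CPM downstream in 2010, 3.71 CPM upstream in 2010 and 4.3 CPM upstream in 2009. The lowest old animal of downstream 2009 had 4.41 CPM. With only 1 animal there that was not old, age class and group cannot be told apart in downstream 2009.

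Age class was not used in choosing the contigs and was tested in a model with group as a second term. None of the 8 contigs was called for old against young in edgeR, where 1258 contigs were called in all (2.45%), 2.07% higher and 0.382% lower in old animals. Unadjusted p under 0.05 was reached in 12061 contigs of the same test. By age class from young to middle-aged to old, TRMT44.2.2 averaged 12.6 ± 6.25, 9.62 ± 5.85 and 5.9 ± 3.63 CPM, and NHRF1 averaged 11.4 ± 5.39, 10.7 ± 6.62 and 6.28 ± 3.41 CPM (SD, n = 10, 11 and 11). These means mix groups, since 7 of the 11 old animals came from downstream 2009. With group in the model, the largest estimates were -1.05 ± 0.47 for ADHX.2.4 (adjusted p = 0.177, edgeR) and -1.04 ± 0.45 for ADHX.1.4 (adjusted p = 0.166). Estimates were -0.70 ± 0.32 for TRMT44.2.2 (0.178), -0.61 ± 0.35 for NHRF1 (0.287), -0.43 ± 0.21 for ADHX.3.4 (0.219) and -0.39 ± 0.22 for ADHX.4.4 (0.277). Those of TRMT44.1.2 and ppp1r15b were -0.04 ± 0.24 (0.933) and 0.08 ± 0.15 (0.731). limma-voom with sample weights called ADHX.2.4, ADHX.3.4 and NHRF1 lower in old animals, with adjusted p of 0.0483, 0.033 and 0.0244, in a test where it called 16.7% of all contigs. Without downstream 2010 replicate 5 the count of contigs called for age was 0.

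**Figure D5:**
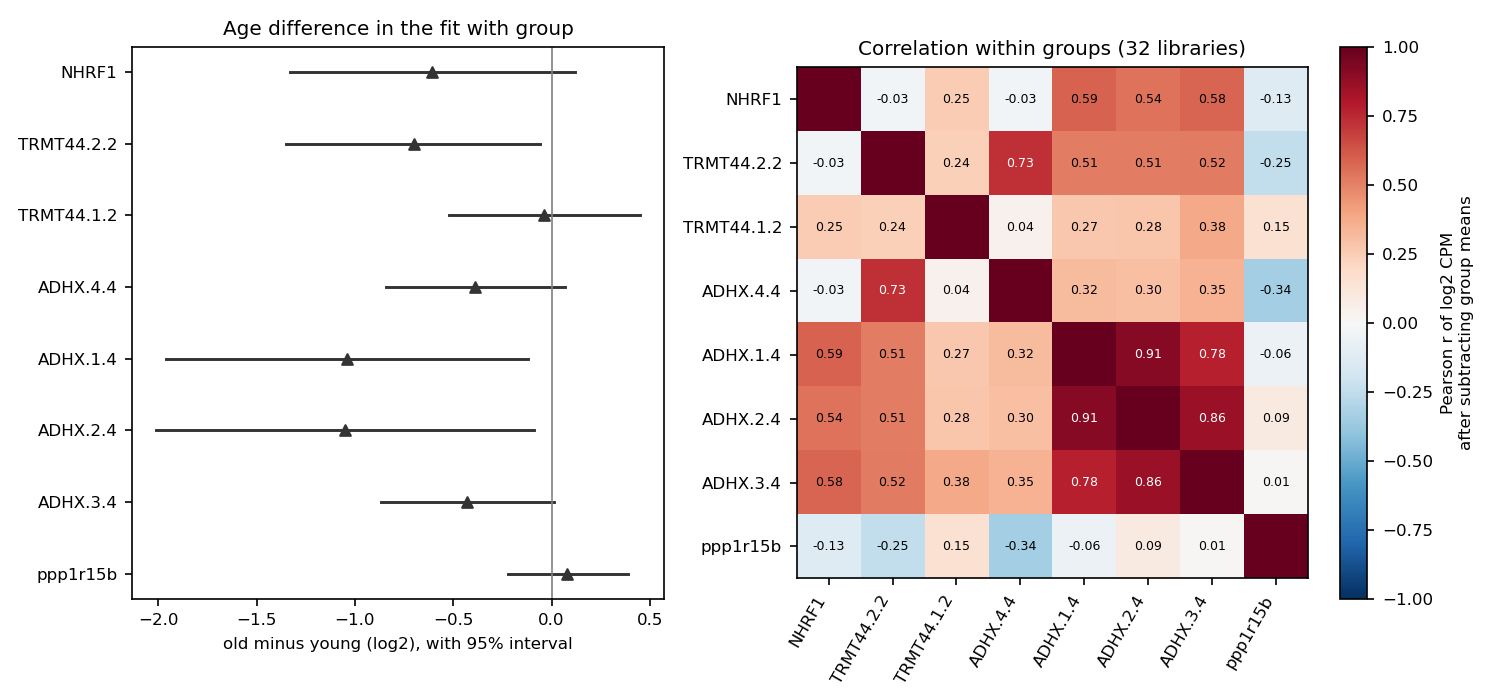
Left, the difference of old minus young animals on the log2 scale for the 8 contigs, with 95% intervals from the edgeR model that also holds group. Right, Pearson's r between contigs over 32 libraries after subtracting group means: ADHX.1.4, ADHX.2.4 and ADHX.3.4 form a block at 0.78 to 0.91, and ADHX.4.4 has its highest value, 0.73, with TRMT44.2.2.

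Correlations from animal to animal within groups are given as a description over the 32 libraries, which share the scaling and the lanes. After subtracting group means, ADHX.1.4 had r = 0.91 with ADHX.2.4 and 0.78 with ADHX.3.4, and ADHX.2.4 had 0.86 with ADHX.3.4. ADHX.4.4 had 0.32, 0.30 and 0.35 with those 3, and 0.73 with TRMT44.2.2. The 2 TRMT44 contigs had r = 0.24 with each other. NHRF1 had 0.59, 0.54 and 0.58 with ADHX.1.4, ADHX.2.4 and ADHX.3.4, and -0.03 with both ADHX.4.4 and TRMT44.2.2. Between ppp1r15b and the other chosen contigs r was -0.34 (ADHX.4.4), -0.25 (TRMT44.2.2) and -0.13 (NHRF1), whereas on levels, which carry the group differences the contigs were chosen for, it was -0.75, -0.66 and -0.46.

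Among named contigs with a mean of at least 1 CPM, the levels most like TRMT44.2.2 over the 32 libraries were those of the RNA helicase Ddx17 (r = 0.94), the splicing factors SRSF4 (0.90) and u2surp (0.90), TNFRSF6B, which in humans is a decoy receptor for death ligands (0.89), and ADHX.4.4 (0.89). Their r after subtracting group means was 0.90, 0.83, 0.81, 0.79 and 0.73, while the median r of levels over all candidates was -0.31. For ADHX.4.4 the list was TRMT44.2.2 (0.89), XIAP.5.6, of an inhibitor of apoptosis (0.86), Ddx17 (0.82), u2surp (0.80) and TNFRSF6B (0.79), and their r after subtracting group means was 0.73, 0.56, 0.63, 0.53 and 0.56. The contigs most like NHRF1 were FGA.1.2 of a fibrinogen chain (0.69), Cbr-spt-5 of a transcription elongation factor (0.65), CPN2 of carboxypeptidase N (0.61), ADA1B of an adrenergic receptor (0.60) and the cytochrome P450 CP3A4 (0.60), with 0.76, 0.67, 0.55, 0.41 and 0.63 after subtracting group means. Those most like ppp1r15b were the 14-3-3 protein 1433E (0.71), urb1 of ribosome assembly (0.69), CDK5RAP1 of tRNA modification (0.69), the ubiquitin-like modifier UFM1 (0.68) and the phosphatase LHPP (0.67), with 0.53, 0.51, 0.39, 0.52 and 0.48 after subtracting group means. The median r of levels over all candidates was 0.05 for NHRF1 and 0.28 for ppp1r15b.

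Other genes of the 4 pathways were taken by name, and none of them was called for the interaction or for age in edgeR. Partners of the NHERF scaffold and apical transporters were matched by 3 contigs, with a median interaction of -0.21, against 0 over all contigs. RADI, radixin, which binds NHERF1 in mammals, averaged 21.0 ± 3.52 CPM downstream and 27.4 ± 5.94 CPM upstream in 2010, and 26.9 ± 7.78 CPM downstream and 30.5 ± 11.1 CPM upstream in 2009 (SD, n = 8 each), with an interaction of -0.21 ± 0.28. The anion transporter contigs S26A5 and slc26a5 had interactions of -0.82 ± 0.58 and 0.98 ± 1.09. S26A5 was lower downstream in 2010 than in 2009 (-1.35 ± 0.42, adjusted p = 0.0158, edgeR), a direction in which 13.7% of contigs were called, against 14.1% in the other.

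The tRNA modification names matched 12 contigs, 2 of them above 0 for the interaction (median -0.27), against 50.4% of all contigs above 0. CDK5RAP1, a methylthiotransferase of mitochondrial tRNA, had -0.62 ± 0.25 (adjusted p = 0.316, edgeR), and the separate contig Cdk5rap1 had -0.38 ± 0.23. The tRNA methyltransferases TRM11 and ftsj1 had 0.53 ± 0.37 and -0.37 ± 0.25. Downstream, 5 of the 12 fell in 2010 relative to 2009 and none rose (edgeR): CDK5RAP1 (-1.07 ± 0.18), Cdk5rap1 (-0.71 ± 0.16), kti12.1.2, kti12.2.2 and mettl26, the last a name taken by the matching and not known as a tRNA enzyme. Named contigs as a whole were called downstream in 40.1%, in either direction, a share near 5 of 12. Of all contigs, 13.7% were called lower, and the share of named contigs called lower was not counted. CDK5RAP1 averaged 2.61 ± 0.432 CPM downstream in 2010 and 5.48 ± 1.82 CPM downstream in 2009 (SD, n = 8 each).

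Of the eIF2 and phosphatase 1 names, 3 were matched. PP1B, a catalytic subunit of the phosphatase that ppp1r15b serves, averaged 78.4 ± 13.6 CPM downstream and 96.3 ± 11.8 CPM upstream in 2010, and 111 ± 18.3 CPM downstream and 104 ± 21.1 CPM upstream in 2009 (SD, n = 8 each). Its interaction was -0.39 ± 0.21 (adjusted p = 0.511, edgeR), of the same sign as that of ppp1r15b. The chaperone GRP78 and the eIF2 kinase eif2ak1 had -0.12 ± 0.42 and 0.09 ± 0.30. Downstream, PP1B (-0.51 ± 0.15, adjusted p = 0.00988) and GRP78 (-0.93 ± 0.30, adjusted p = 0.0193) fell in 2010 relative to 2009, as did 13.7% of all contigs, with 40.1% of named contigs called in either direction. The muscle, immune and cilia sums were also lower in downstream 2010 than in downstream 2009 by their medians. Their part in these differences was not tested.

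The alcohol, aldehyde and formaldehyde names matched 6 contigs, all of aldehyde dehydrogenases, with a median interaction of 0.24. AL1A1.2.2 had 0.44 ± 0.81, aldh1a2 0.34 ± 0.87, AL1A1.1.2 0.28 ± 0.84 and ALDH2.2.3 -0.13 ± 0.48. None was called for site, year, interaction or age. For old against young all 6 estimates were below 0, with a median of -0.52 against -0.03 over all contigs, and the SE of each was at least 0.40. For middle-aged against young all 6 were above 0, with a median of 0.58 against -0.04 over all contigs. The SE of each was at least 0.29 there. All 6 were also below 0 for old against middle-aged (median -1.21), for site in 2009 (-0.38) and for year downstream (-0.6) and upstream (-0.97). For site in 2010, 1 of the 6 was above 0, and for the interaction 4 were. A shared sign was thus not particular to age, and the 6 contigs are not replicates.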

How the data were processed

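RNA of 32 kidneys, 1 TruSeq RNA v2 library per animal, was analysed from 1 table of raw counts per contig deposited by the authors. Per the submitters' processing notes, BWA 0.7.12 and SAMtools 1.1 were used. The assembler and the source of the contig names are not given in the sources used here. All columns matched a labelled sample (0 left over), and groups, years and age classes come from the labels.

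Counts were fitted in R 4.3.3 with edgeR 4.0.16: filterByExpr (minimum count 10, minimum total 15), TMM factors, 1 quasi-likelihood model with 4 group means over 32 libraries, Benjamini-Hochberg adjustment over 51264 contigs. Age was tested with group as an additive term. SEs were computed from the F statistic. CPM uses the TMM-scaled library size. Correlations and the values within lanes use log2 CPM with a prior count of 2. The code was tested on simulated data. Separate animals are the replicates, so p-values measure the spread between animals; wider sampling of the sites is not covered. Depth of 55.7 to 190 M counts left at least 41 counts per library for each of the 8 contigs.

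The contigs and lists were chosen with earlier results of these data known. Text names all contigs of the 4 names, the 5 most alike named contigs of each chosen one, and from each list up to 4 of smallest interaction p and any called for interaction or age. Contigs outside that rule (the list members called between years downstream, the neighbours of the threshold) were named after their values were seen.

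Alternatives were RLE factors, no filter, at least 1 CPM in 8 libraries, terms for age class, lane or both, limma-voom (limma 3.58.1), DESeq2 1.42.0, only the groups compared, contigs of a name summed, each library left out, and downstream 2009 replicates 7 and 8 left out together.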

Additional observations from a re-analysis of the deposited data

Results flagged for a closer look

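In upstream 2009, TRMT44.1.2 stood at 2.4 CPM in replicate 4, far above the other 7 animals of the group. In downstream 2010, ppp1r15b stood at 3.93 CPM in replicate 1, above the other 7. These were 2 of 32 sets of 8 values (8 contigs in 4 groups) past Dixon's 95% critical value, and chance flags about 1 in 20 such sets.

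The site difference differed between 2010 and 2009 by 2.09 for NHRF1, 1.75 for TRMT44.2.2, 1.30 for ADHX.4.4 and -0.79 for ppp1r15b (log2, edgeR's interaction). The contigs were chosen on that difference, so these values are not independent evidence of it.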

How the results depend on the processing

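The interaction of the 4 chosen contigs kept its sign under every setting tried. Both filters, DESeq2, limma-voom and the fit without downstream 2009 replicates 7 and 8 kept all 4 calls. With age class as a term none was called (NHRF1 1.78, TRMT44.2.2 1.42, ADHX.4.4 1.10, ppp1r15b -0.76), nor with lane (2.07, 1.65, 1.28 and -0.78) or with both (1.89, 1.41, 1.13 and -0.68). RLE factors left TRMT44.2.2 at 1.72, not called, and ppp1r15b just inside the threshold, and summing the ADHX contigs gave 0.59, not called, with 0.31 for the year downstream, against 1.62 for ADHX.4.4. The site difference of 2010 passed the threshold in 3 of 11 settings for TRMT44.2.2, 2 for ADHX.4.4, 1 for NHRF1 and 0 for ppp1r15b. That of 2009 passed in 1 each for NHRF1 and ppp1r15b and 0 for the others. Without 1 animal, site 2010 passed in 1 of 32 fits each for TRMT44.2.2 and ADHX.4.4. The year difference of NHRF1 ran from 0.61 to 1.41 downstream (8 of 11 settings past the threshold, 28 of 32 fits without 1 animal) and from -1.17 to -0.75 upstream (7 of 11 and 20 of 32). Leaving out 1 animal at a time gave 1.93 to 2.28 for NHRF1 (16 of 32 fits called), 1.58 to 1.89 for TRMT44.2.2 (11), 1.19 to 1.39 for ADHX.4.4 (17) and -0.84 to -0.71 for ppp1r15b (10), with adjusted p up to 0.071, 0.0876, 0.0693 and 0.0933. These 4 calls thus lie near the threshold, and the cause of each lost call was not tested.

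The 226 contigs called for the interaction became 37 with age class, 93 with lane, 67 with both, 137 with RLE, 706 without downstream 2009 replicates 7 and 8, 940 with DESeq2 and 4070 with limma-voom, and ran from 35 (without downstream 2009 replicate 3) to 840 (without downstream 2010 replicate 5). The 1258 called for age became 3680 without replicates 7 and 8, 4104 with DESeq2, 4335 with lane and 8554 with limma-voom, and ran from 0 (without downstream 2010 replicate 5) to 2580 (without downstream 2009 replicate 5). Site effect 2010 gave 29 to 14879 contigs, against 84, and 16 (without upstream 2010 replicate 3) to 556 (without downstream 2009 replicate 8) with 1 animal left out. Site effect 2009 gave 0 in edgeR and limma-voom and 49 in DESeq2, with 4277 at an unadjusted p under 0.05. The year effect gave 5446 to 24469 downstream, against 14225, and 1059 to 4420 upstream, against 1914, and upstream 784 (without upstream 2009 replicate 4) to 3624 (without upstream 2009 replicate 8) with 1 animal left out.

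Among uncalled values the sign changed for ADHX.1.4 (interaction -0.026 with age class; site 2009 0.117 with age class and 0.115 with age class and lane; site 2010 0.091 with age class, 0.135 with both, 0.014 with lane, 0.059 with limma-voom). It changed for ADHX.2.4 (interaction -0.51 with age class and -0.43 with both; site 2009 0.51 and 0.44; site 2010 0.004 with both), for ADHX.3.4 (site 2009 0.044 with age class) and for TRMT44.1.2 (age 0.25 with lane; site 2009 0.19 with limma-voom). The summed ADHX contigs gave -0.28 for the year upstream. Leaving out 1 animal gave -0.15 to 0.15 (ADHX.1.4) and -0.23 to 0.06 (ADHX.2.4) for site 2010, -0.107 to 0.059 (age) and -0.14 to 0.14 (site 2009) for TRMT44.1.2, and -0.091 to 0.01 for the year upstream of ppp1r15b. The causes were not tested.

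No paired analysis was possible because the labels number the animals once through the whole series and share no replicate number between groups; the replicate numbers used here only name the animals. Lane, the one block the labels give, is the lane term above. Age class was spread unevenly over the groups, with 7 of the 11 old animals in downstream 2009.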
